A study of Drosophila melanogaster with 4 samples.

Results

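The 4 Wnt genes Wnt4, wg, Wnt6 and Wnt10 lie beside each other on arm 2L of the Drosophila melanogaster genome. They were examined as a group in a window of 140 kb, from 7.24 to 7.38 Mb of 2L in FlyBase release 5, with 200 kb flanks on each side. The window was set by position and not by any measured value, and the 4 members are out of 17872 genes in the RefSeq table. The mark measured was histone H3 dimethylated at lysine 27 (H3K27me2), by chromatin immunoprecipitation and sequencing (ChIP-seq) with antibody Ab24684. Chromatin came from nuclei of Oregon-R larvae of instar 3, wild type in genotype and with no treatment named. The labels give 2 ChIP samples, each with its own input, and name no tissue, so every value averages over the cells in the preparation. The values are the authors' lists of enriched regions, called clusters here, with 1 list per ChIP sample and 1 that the authors made from both together, the combined list. Of 15589 clusters in replicate 1, 24 touched the window, as did 20 of 15021 in replicate 2 and 26 of 16862 in the combined list.

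Wnt proteins are secreted, lipid-modified ligands. They bind Frizzled receptors and the co-receptor Arrow, and in the canonical branch this stabilises Armadillo, the fly beta-catenin, which acts with the factor Pangolin on target genes. The gene wg encodes Wingless, the ligand that patterns embryonic segments and, in larvae, the imaginal discs from which wings and legs form. Wnt4 encodes a ligand with roles in cell movement in the ovary, Wnt6 one with a role in growth of the maxillary palp, and Wnt10 a less studied member. H3K27me2 is set by the methyltransferase E(z) in the Polycomb complex PRC2, the same enzyme that makes H3K27me3, and wg is a known Polycomb target in flies. H3K27me3 was not analysed here.

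By the order of the protein-coding genes in the RefSeq annotation of release 6, Wnt4 precedes wg with CG31909 between their starts. Wnt6 and then Wnt10 follow wg with no other protein-coding gene in between. CG13786 is the neighbour before Wnt4, and ninaC, which encodes a photoreceptor myosin, is the neighbour after Wnt10. In release 5 coordinates a position was used only for wg, 9111 bp from 7.307 to 7.316 Mb. The window was therefore described in 3 parts. The 67.2 kb below wg are the side of Wnt4, the middle is wg, and the 63.7 kb above it are the side of Wnt6 and Wnt10. This split was chosen after the values were seen, and no cluster could be assigned to Wnt4, Wnt6 or Wnt10 singly. The strand of wg was not taken from the files, so its ends are called lower and upper by coordinate.

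The lower part of wg and the sequence before it lay in no cluster of either replicate, while the upper end of wg was marked in both. In replicate 1 the unmarked stretch ran from 7296703 to 7313193, 16.5 kb, starting 10.5 kb before wg and ending 6.03 kb inside it. In replicate 2 it ran from 7293516 to 7314489, 21.0 kb, starting 13.6 kb before wg and ending 7.33 kb inside it. These stretches took in 66.2% and 80.5% of wg. They were the longest inside the window in each replicate.

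The combined list was less empty there. It held a cluster of 1901 bp inside wg (7309950 to 7311850, score 0.40) and one of 1046 bp before it (7300072 to 7301117, score 0.42), and no cluster of either replicate touched them. In that list the free stretch was 8.83 kb, from 7301118 to 7309949, and held 30.6% of wg. The position shared by all lists as free was thus the lowest 2.79 kb of wg and the 6.04 kb before it.

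Free stretches of this kind were common on the arm. Among the 758 stretches of at least 5 kb on 2L in replicate 1, 180 were longer than the one at wg. In replicate 2, 170 of 680 were longer, and for positions free in both replicates 147 of 645 were longer. Assembly gaps and repeats were not excluded from such stretches, and their part was not tested.

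**Figure D1:**
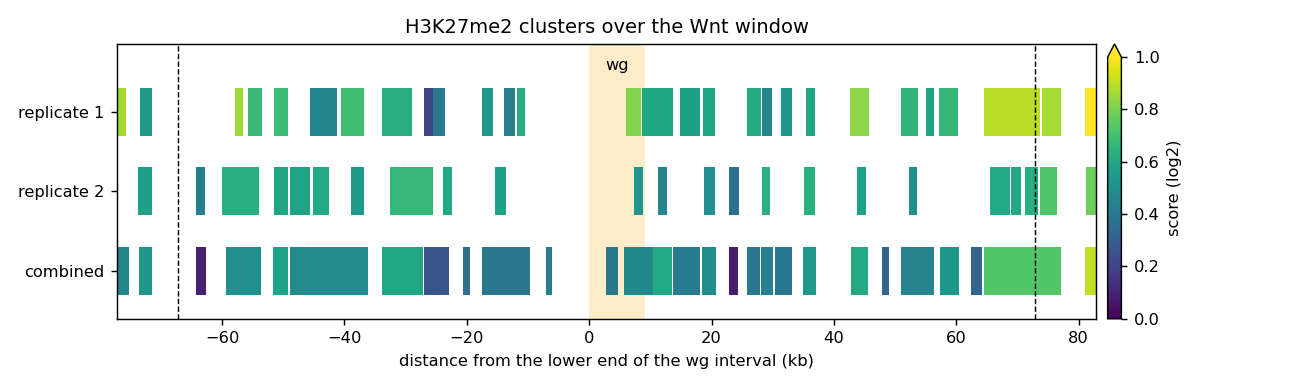
Each box is a cluster of the named list, placed by its distance in kb from the lower end of wg and coloured by its score on a log2 scale (values above 1 share the top colour). The shaded band is wg and the dashed lines are the ends of the 140 kb window; both replicates leave the lower part of wg and the sequence before it empty and resume inside wg.

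The marked part of wg was its upper end. In replicate 1 a cluster of 2458 bp lay wholly inside wg, from 7313194 to 7315651, with a score of 0.81. The score is the authors' own value for a region, read here as a log2 value, and this one was higher than 74.2% of the scores on 2L in that list. A further cluster of replicate 1, 7315787 to 7320902 with a score of 0.59, began in wg and ran 4.63 kb past its upper end. In replicate 2 a single cluster lay in wg, from 7314490 to 7315971, 1482 bp with a score of 0.52, which was above only 21.4% of the scores on 2L. Of that cluster, 90.9% lay in clusters of replicate 1, so the replicates placed the mark at the same end of the gene with different scores. The combined list had a cluster from 7312883 to 7317523 there, with a score of 0.46.

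Clusters of replicates 1 and 2 covered 32.3% and 16.3% of wg, and those of the combined list 58.1%. The mean of the replicates was 24.3% ± 11.3 (SD, n = 2). In each list wg was less covered than the rest of its window, with differences of -15.9 and -18.4 percentage points in replicates 1 and 2 and of -8.64 in the combined list. The mean difference was -17.2 ± 1.75 (SD of the differences within a library, n = 2). A comparison added after the values were seen kept only clusters at or above the median score of their whole list. The sign of the difference then turned in replicate 1. There wg had 27% and the rest of the window 12.5%, a difference of 14.5 points. In replicate 2 wg had 0% and the rest 7.87%. The 2L median of replicate 1, 0.63, is lower than that of the whole list and would keep more clusters outside wg. The difference at that lower cutoff was not computed. With 2 libraries the smallest p of an exact permutation test by sign flips is 0.5 (two-sided), and differences were left untested. As a description, 2L was divided into 2524 other tiles of the length of wg, of which 44.9% and 35.8% were less covered than wg in replicates 1 and 2, and 54.3% in the combined list. The level at wg was therefore within the middle range for stretches of its size, for which the quartiles were 14.5% and 63.8% in replicate 1 and 0% and 62.9% in replicate 2.

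The whole Wnt window was covered to 47.2% and 33.5% in replicates 1 and 2 and to 66.1% in the combined list. The mean of the replicates was 40.3% ± 9.69 (SD, n = 2), against 37.9% ± 2.53 for the arm. The window lay 7.50 percentage points above the arm in replicate 1 and -2.63 from it in replicate 2, so the replicates differ in the sign. Outside wg the window was covered to 48.2%, 34.7% and 66.7% in these lists.

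Among the 162 other non-overlapping tiles of 140 kb on 2L, 70.4% and 42.0% were less covered than the window in replicates 1 and 2, and 79.6% in the combined list. The tiles had quartiles of 29.6% and 51.4% in replicate 1 and 23.5% and 46.4% in replicate 2, and the window fell between them in both. In the combined list it lay above the upper quartile, 62.9%. Against its own flanks the window was 19.2 percentage points higher in replicate 1 and differed by -0.854 in replicate 2. In the combined list it was 22.8 points higher. The mean of the replicates, 9.16 ± 14.2 (SD of the differences, n = 2), is smaller than its spread. The same difference for 160 other tiles with full flanks had quartiles of -9.47 and 8.65 in replicate 1 and of -10.9 and 11.1 in replicate 2, so the window lay above them in replicate 1 and between them in replicate 2.

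**Figure D2:**
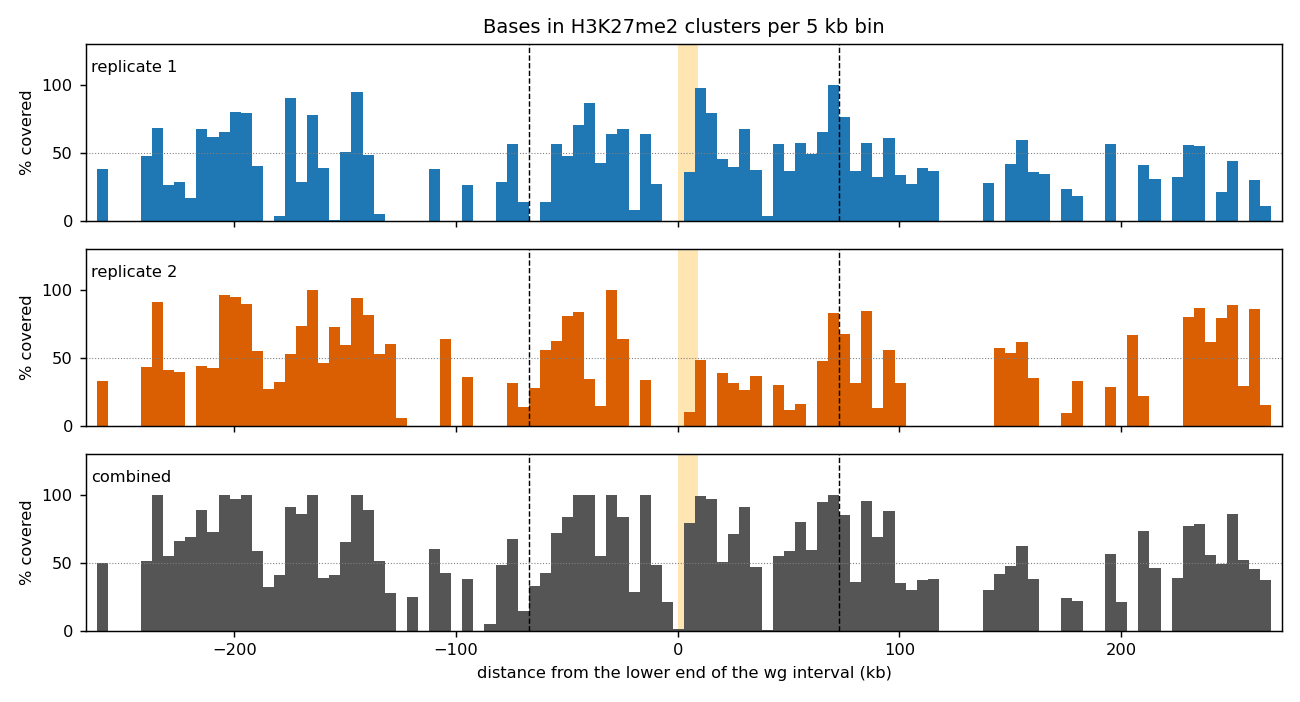
Bars give the percentage of each 5 kb bin in clusters, by distance in kb from the lower end of wg, for replicate 1 (top), replicate 2 (middle) and the combined list (bottom). The shaded band is wg, dashed lines are the window's ends and the dotted line is 50%; the 2 bins at and before the lower end of wg are empty in both replicates.

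In steps of 5 kb, 13 of the 28 bins of the window were covered at 50% or more in replicate 1, against 7 in replicate 2, and the combined list had 20 such bins. Over all of 2L such bins made up 39%, 36% and 53.2% of the bins in these lists. Only 5 bins, 17.9%, were covered at that level in both replicates, against 28% on 2L. Of these, 4 lay on the side of Wnt4, ending at 7255000, 7265000, 7280000 and 7285000, and 1 was the last bin of the window. Bins with no cluster in either replicate numbered 2, both at or just before the lower end of wg, and made up 7.14% of the window against 24% of 2L. Replicates 1 and 2 had 3 and 7 empty bins and the combined list 0, where 29.2%, 36.3% and 21.4% of the bins of 2L were empty. Most of the window thus held some mark in at least one list, interrupted at short intervals.

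The sides of the window differed between the replicates. On the Wnt4 side coverage was 40.9% in replicate 1 and 41.6% in replicate 2, nearly the same. On the side of Wnt6 and Wnt10 it was 56.0% in replicate 1 and 27.4% in replicate 2. The combined list gave 64.5% on the Wnt4 side and 69.0% on the other. The side of Wnt6 and Wnt10 was thus 15.1 percentage points above the Wnt4 side in replicate 1 and -14.1 from it in replicate 2.

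The gap of 28.5 points between the replicates on the side of Wnt6 and Wnt10 was wide for the arm. Among 359 other tiles of that length on 2L, 11 had a larger gap in either direction, and the median gap was 6.30 points. In 7 tiles replicate 1 exceeded replicate 2 by more. The split into sides was chosen after the values were seen, so these ranks can overstate how unusual the gap is. On the Wnt4 side of the same split the gap was 0.675 points. On the side of Wnt6 and Wnt10 all 12 whole bins were more covered in replicate 1, by 1.34 to 79.4 points. Of the 4602 bins of 2L, 2016 (43.8%) were more covered in replicate 1, 1371 in replicate 2, and 1215 were equal. On the Wnt4 side 6 bins were higher in replicate 1, 6 in replicate 2 and 1 was equal. The whole arm differed less, with 39.7% in replicate 1 and 36.1% in replicate 2. Read depth was not given in these files, and its part in the gap was not tested.

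Most marked sequence of replicate 2 on the side of Wnt6 and Wnt10 was also marked in replicate 1. Bases in both lists made up 24.5% of that side, bases in replicate 1 alone 31.5% and bases in replicate 2 alone 2.95%. On the Wnt4 side the shares were 23.6%, 17.3% and 17.9%. Of 11 clusters of replicate 1 wholly beyond wg, 5 touched no cluster of replicate 2. Their scores ran from 0.53 to 0.66, with a median of 0.58, against 0.62 for the 6 with a partner. Of 10 clusters of replicate 2 on that side 1 lacked a partner, 7329970 to 7331584, with a score of 0.37. Over 2L, 23.4% of the clusters of replicate 1 and 15.6% of those of replicate 2 had no partner.

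**Figure D3:**
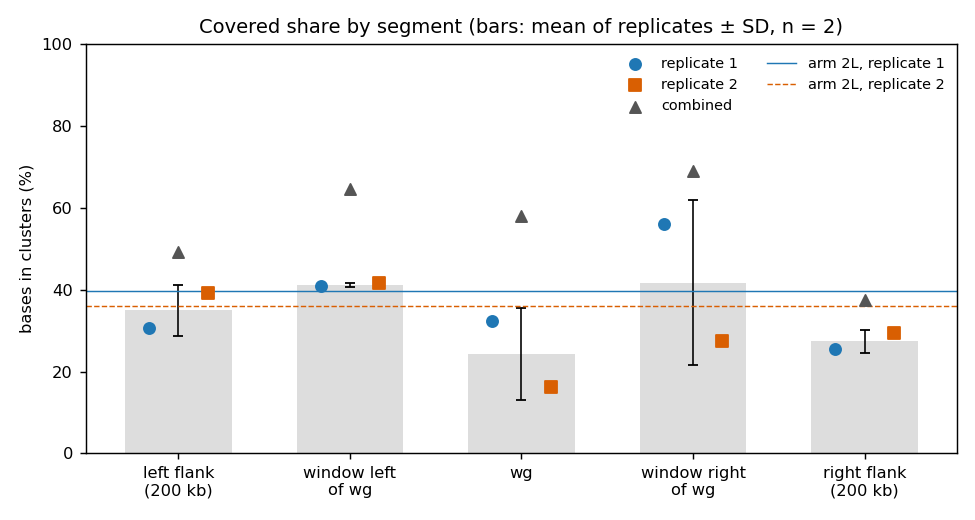
Bars give the mean percentage of bases in clusters over both replicates with its SD (n = 2) in each segment; circles, squares and triangles are replicate 1, replicate 2 and the combined list. Horizontal lines are the arm 2L in each replicate. The replicates have close covered shares on the Wnt4 side (left of wg). Their covered shares lie apart on the side of Wnt6 and Wnt10 (right of wg).

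Agreement in position between the replicates was lower in the window than in most of the arm. The Jaccard index divides the bases that the replicates share by those that at least one of them covers. It was 0.41 in the window and 0.583 over 2L. Of the 162 other tiles of 140 kb, 30 had a lower index, and the tiles had quartiles of 0.452 and 0.67. It was 0.438 in wg, 0.402 on the Wnt4 side and 0.416 on the other side. The flanks were also below the value for 2L, with 0.488 on the left and 0.403 on the right. Of 113 other tiles of 200 kb, 29.2% had a lower index than the left flank and 15.9% than the right. Of the bases of replicate 1 in the window 49.7% were shared, and of those of replicate 2 70.0%. A further 10.3% of the window lay in clusters of the combined list alone, against 5.77% of 2L. In wg that share was 24.3%.

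**Figure D4:**
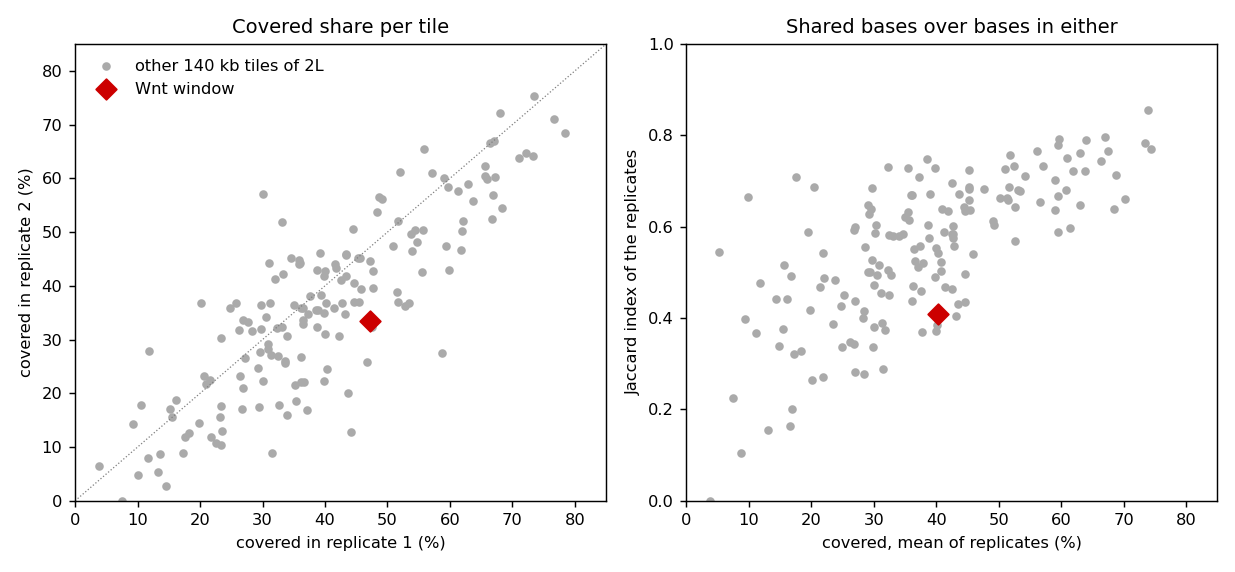
Each grey point is 1 of 162 other tiles of 140 kb on 2L and the red diamond is the Wnt window; the left panel plots coverage in replicate 2 against replicate 1, in percent, with a line of equality, and the right panel the Jaccard index against mean coverage. The window sits at 47.2% and 33.5% and has a Jaccard index of 0.41.

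By their medians, the clusters of the window were of ordinary length and score for the arm in replicate 1 and short in replicate 2. Median lengths were 2167.5 and 1755.5 bp in replicates 1 and 2 and 2498 bp in the combined list, against 2235, 2191 and 2475 bp on 2L. In replicate 2 the median was lower in 17 of 161 other tiles and higher in 144. Median scores were 0.60, 0.59 and 0.43, against 0.63, 0.61 and 0.45 on 2L. Mean scores weighted by covered bases were lower than on the arm in each list, 0.64, 0.58 and 0.47, against 0.78, 0.66 and 0.60. Scores above the 2L median were found in 10 of 24, 5 of 20 and 12 of 26 clusters, where 50% of the clusters on 2L lie above it by definition in each list.

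The highest score of replicate 1 in the window, 0.90, belonged to its longest cluster, 7371744 to 7380865, 9.12 kb, at the upper edge. It exceeded 81.7% of the scores on 2L. Replicate 2 split that place into 7372635 to 7376002, 7376159 to 7377692 and 7378398 to 7380588, with scores of 0.60, 0.60 and 0.63, and a further cluster, 7380791 to 7383563 with a score of 0.73, overlapped its last bases from beyond the window. Its own highest score, 0.67, lay on the Wnt4 side in its longest cluster, 7274535 to 7281696, 7.16 kb. The combined list had its highest score, 0.73, at the upper edge in the cluster 7371707 to 7384265 of 12.6 kb. Its longest cluster, 7258270 to 7271019 of 12.8 kb, lay on the Wnt4 side with a score of 0.47. The lowest score of replicate 1 was 0.20, at 7280239 to 7281679, and that of replicate 2 was 0.37. The combined list reached down to 0.081, at 7330011 to 7331547, where replicate 1 had no cluster.

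Joining clusters closer than 1 kb gave 16 domains in the window in each of the 3 lists. A single domain reached 10 kb in each replicate and 4 did so in the combined list. In both replicates it was the one at the upper edge, from 7371744 to 7384198 in replicate 1 (12.5 kb) and from 7372635 to 7383563 in replicate 2 (10.9 kb). It crosses the end of the window by position, on the side where ninaC follows Wnt10. Only with its bases beyond the window did it reach 10 kb in either replicate. Domains of at least 10 kb held 11.9% and 15.2% of the domain bases in the window, against 35.6% and 38.9% on 2L. In the combined list the share was 54.5%, against 56.0%. With clusters joined below 3 kb the shares were 66.6% and 65.5% in the replicates, against 71.5% and 74.9% on 2L. This contrast was smaller than with the shorter joining distance. In the combined list joined below 3 kb the direction turned, with 98.6% in the window against 84.3% on 2L. The median domain joined below 1 kb was 3.71 kb in replicate 1, against 3.13 kb on 2L, and 1.66 kb in replicate 2, against 3.23 kb. The 4 combined domains of at least 10 kb, joined below 1 kb, were 7255553 to 7271019, 7273283 to 7284277, 7312883 to 7327826 and 7369563 to 7384265. The third of these begins inside wg, 5.72 kb from its lower end, and ends 11.6 kb past its upper end.

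At the lower edge the window began in a free stretch. It ran from 7235693 to 7249321 in replicate 1 (13.6 kb), from 7235710 to 7242908 in replicate 2 (7.20 kb) and from 7235737 to 7242903 in the combined list (7.17 kb). The next cluster of replicate 2, 7242909 to 7244314 with a score of 0.43, had no partner in replicate 1. Replicate 1 began with the clusters 7249322 to 7250630 and 7251414 to 7253598, where replicate 2 had a single cluster, 7247212 to 7253129. Further stretches of at least 5 kb free in both replicates lay at 7344111 to 7349801 and 7352819 to 7358183, on the side of Wnt6 and Wnt10. Of the first, 7344205 to 7349801 was free in all 3 lists. The combined list held a cluster inside the second, 7354985 to 7356113, with a score of 0.33. Stretches of at least 5 kb made up 34.3% and 48.8% of the window in replicates 1 and 2 and 12.5% in the combined list, against 45.7%, 51.2% and 34.5% of 2L.

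Borders were placed less alike than elsewhere on 2L in the median. In the window 15 pairs of clusters were each other's best overlap between the replicates. Their 30 borders lay a median of 969 bp apart, from 3 to 4863 bp, against 353 bp for 1924 pairs on the rest of 2L. Within 200 bp lay 8 of the 30 borders, and 36.7% of those on the rest of 2L. The closest match was the cluster 7255592 to 7257987 of replicate 1, whose partner 7255595 to 7257961 differed by 3 bp at the lower and 26 bp at the upper border. Next came 7325772 to 7327793 and 7325872 to 7327771, with 100 and 22 bp. For the paired clusters inside wg the borders were 1296 bp apart at the lower and 320 bp at the upper side. For the pair whose member in replicate 1 began in wg, 7315787 to 7320902 with 7318380 to 7319831, they were 2593 and 1071 bp apart. In 12 of the 15 pairs the cluster of replicate 1 was the longer, a share of 80%, against 55.8% of the pairs on the rest of 2L.

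**Figure D5:**
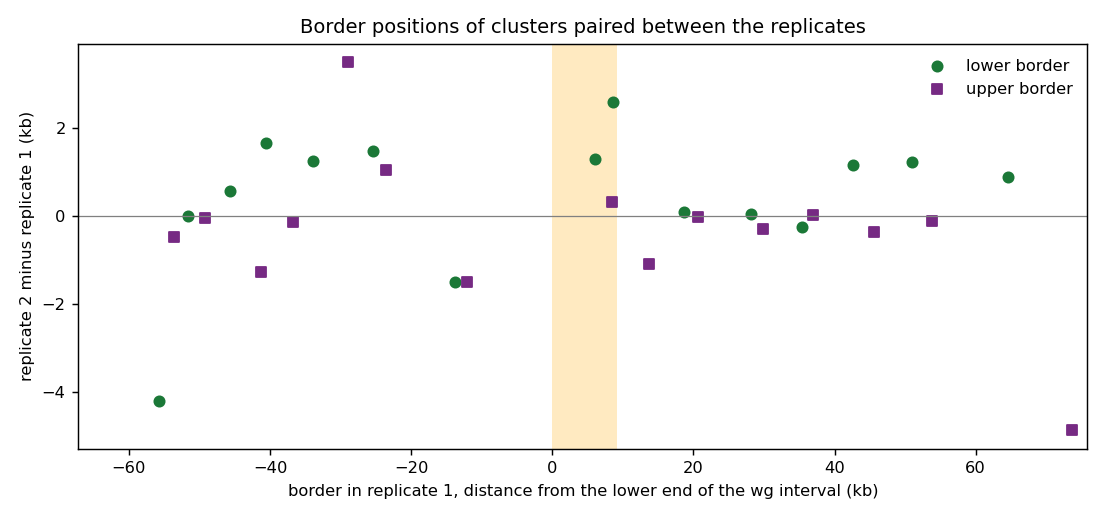
Points give, for the 15 clusters paired between the replicates, the position in replicate 2 minus that in replicate 1 (kb) of the lower border (circles) and the upper border (squares), against the distance of the border in replicate 1 from the lower end of wg (kb). The band is wg; 8 of 30 borders lie within 200 bp of 0 and the widest offset is 4863 bp.

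Replicate 1 and the combined list covered the flanks less than the window. The left flank was covered to 30.6% and 39.3% in replicates 1 and 2 and to 49.3% in the combined list. The right flank had 25.5%, 29.4% and 37.4%. Of 113 other tiles of 200 kb on 2L, 17.7%, 33.6% and 20.4% were less covered than the right flank in these lists. For the left flank the shares were 24.8%, 59.3% and 41.6%. In the left flank the marked sequence was concentrated far from the window, with the longest domain at 7103181 to 7114428 in replicate 1, 7100198 to 7114482 in replicate 2 and 7085188 to 7115106 in the combined list. Close beyond the window on the right lay the highest score of the flanks in each list. This cluster, 7388180 to 7392677 in replicate 1 with a score of 1.25, scored 0.77 in the other replicate and 0.91 in the combined list. Its score exceeded 96.1%, 90.8% and 95.3% of those on 2L, higher than any cluster touching the window.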

How the data were processed

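The submitters' processing notes name Bowtie 0.12.7 as the aligner. Positions are FlyBase release 5, per the file headers, counted from 1. The window is 2L 7240001 to 7380000, and wg 2L 7307160 to 7316270. The authors deposited regions with a start, an end and a score. No source used here gives the caller, the thresholds, how input was scaled or how the combined list was made. The score is read as a log2 value of the authors: 398, 78 and 246 pairs of distinct scores in the 3 deposited lists lay exactly 1 apart within 1e-09, and 0 a doubling apart on a natural or decimal log scale. The files hold no read counts, so depth is unknown and no counting interval was given.

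Regions typed as depleted were left out. Input samples had no list used here. Covered bases, 5 kb bins, free stretches, domains (clusters closer than 1 kb joined) and reciprocally best pairs were computed in Python 3.11.15 with numpy 2.4.6 and pandas 2.3.3, checked on simulated intervals. All non-overlapping tiles of 2L in phase with the window, in place of drawn windows, served as background, with no p. Named were the 4 genes, each cluster in wg, those at the window's edges, and the longest and highest-scored ones; further regions were chosen after their values were seen. The members and lists were chosen with earlier results of these data known. Separate collections of larvae are not stated in the labels, and the spread may be technical. Alternatives were the combined list, score and length filters, joining, other bins and widths, and each replicate left out. Positions of Wnt4, Wnt6, Wnt10 and other pathway genes in release 5 were not used here; RefSeq gave names and gene order only. The Wnt pathway list was therefore not analysed here.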

Additional observations from a re-analysis of the deposited data

How the results depend on the processing

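In the combined list the covered share was 66.1% for the window, 58.1% for wg, 66.7% for the window outside wg and 43.4% for the flanks. With only the clusters that reach the median score of their whole list it was 10.4% for the window and 13.5% for wg. It was then 10.2% outside wg and 11.6% for the flanks. With clusters of at least 2 kb it was 27.2% for the window, 16.1% for wg, 28% outside wg and 22.3% for the flanks. The filters lower these shares by construction, and the cause of the higher combined values was not tested. With either replicate left out the window ran from 33.5% to 47.2%, wg from 16.3% to 32.3%, the window outside wg from 34.7% to 48.2% and the flanks from 28% to 34.3%. The difference between window and flanks ran from -0.854 to 19.2 with either replicate left out, so without replicate 1 it reversed, and it was -1.17 at or above the median score; the cause was not tested. The difference between wg and the rest of the window, with alternatives chosen after seeing the data, was -17.2 points. It ran from -18.4 to -15.9 with either replicate left out, was -8.64 in the combined list and -11.8 at 2 kb or more, and turned to 3.30 at or above the median score, with 14.5 in replicate 1 and -7.87 in replicate 2; the cause was not tested. The Jaccard index was 0.254 with clusters of at least 2 kb, 0.423 after joining and 0 at or above the median score. Fewer clusters remain at that cutoff. It is the median of the whole list, and the 2L medians of replicates 1 and 2 are lower, 0.63 and 0.61. Clusters scored above the 2L medians do overlap, such as 7371744 to 7380865 of replicate 1 (0.90) and 7378398 to 7380588 of replicate 2 (0.63). The window exceeded 58.6% of tiles in the mean of the replicates, 58.6% of windows at every 5 kb step that do not overlap it and 57.4% of tiles without the last 1 Mb of 2L. At 80% or more, 1 bin was covered in both replicates, and 9 stretches of at least 2 kb were free in both. Joining below 3 kb gave 9.5 domains in the mean of the replicates, against 16. No paired analysis was possible because equal numbers only tie a ChIP sample to its input, for which no regions were analysed here, and no value comes from a test. What read depth limits could not be measured.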

Other observations

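A region that the combined list types as depleted lay in the right flank, at 2L 7471002 to 7472593, 91.0 kb beyond the window, with a score of -0.018. Clusters typed as enriched in replicate 1 covered 100% of it and those of replicate 2 covered 0%. No region in the window itself was typed as depleted in any of the 3 lists.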
